A study of Mus musculus with 18 samples.

Results

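The Tribbles pseudokinases and the C/EBP transcription factors are 2 small gene families whose proteins act on each other in myeloid cells. The 6 genes described here, Trib1, Trib2, Trib3, Cebpa, Cebpb and Cebpd, were taken from the expression table by symbol, and all 6 were found among its 16614 genes. Of these, 5 passed the filter on low counts, which kept 11989 genes, and Trib2 did not. The set was proposed with results of these data in view, so it is taken as selected on the measured levels in the 4 groups described below, although which contrast decided is not recorded. Their p-values, each from a fit to all genes, therefore describe the size of a difference against the spread between samples, and are not independent evidence for the choice.

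Tribbles proteins have a kinase fold that catalyses little or no phosphate transfer and works as a scaffold. TRIB1 and TRIB2 bring C/EBPα to the ubiquitin ligase COP1, which marks it for degradation, and they also bind the kinase MEK1. TRIB3 is a stress-induced member whose gene is a known target of the transcription factors ATF4 and CHOP. C/EBPα directs early myeloid differentiation, while C/EBPβ and C/EBPδ are best known from inflammation and the acute phase, where cytokines such as IL-6 raise their genes through STAT3. In dendritic cell development, C/EBP factors drive Zeb2 and NFIL3 opposes them, which favours the cross-presenting type 1 conventional dendritic cell (cDC1).

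The samples were 18 RNA libraries of mouse bone marrow-derived dendritic cells, grown for 7 to 10 days in Flt3L (100 ng/ml) and GM-CSF (20 ng/ml). The cells were sorted as CD11c+ Xcr1+ or enriched with beads against XCR1, a surface receptor of cDC1, and which of these each sample had is not given. There were 4 control samples of each genotype, WT and KO, and 5 of each treated with LPS, lipopolysaccharide, the bacterial ligand of Toll-like receptor 4. The title of the study names the balance of STAT5 and STAT3, but the labels used here do not give the deleted gene, the strain, the age of the animals, or the dose and time of LPS. Nothing says whether replicates came from separate cultures or animals, so p-values measure only the spread between these samples, which may be technical. In bulk RNA, fewer cells that express a gene and less of its RNA per cell cannot be told apart.

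Library totals ran from 25590104 to 27375189 estimated counts. Levels are given as CPM, each count relative to its library total after TMM scaling, which allows for the share of reads that a few abundant genes take. The factors averaged 1.36 and 1.32 in WT and KO control and 0.814 and 0.769 in WT and KO LPS. All 10 of the listed cDC1 markers were found in every group, and together they made up 5621 to 8078 CPM per library, although Cd8a averaged only 0.24 and 0.342 CPM in WT and KO control. In WT control the cDC1 sum was mostly Wdfy4, Irf8 and Naaa, at 3506, 1851 and 1119 CPM on average. Some of these markers differed between the genotypes. In control 1 of the 10 was called lower in KO and none higher, and with LPS 4 were lower and 2 higher, beside 2 of 6 tested cDC2 markers that were lower. Over all tested genes, 2.41% were called in control and 10.8% with LPS. Of the markers listed for other cells, Kit was higher in KO in control and lower with LPS (edgeR adjusted p = 0.013 and 0.023). Ccr2 was lower in KO with LPS (edgeR adjusted p = 0.009). Xcr1, on which the cells were purified, was 175.1 CPM in WT control against 109 CPM in KO control, and 428.4 against 280.8 CPM with LPS (log2 differences -0.68 and -0.61, edgeR adjusted p = 1.3e-05 and 1.4e-06). Naaa, a lysosomal amidase, was 985.8 CPM in WT LPS against 514.5 CPM in KO LPS (-0.94, edgeR adjusted p = 1.2e-07). Itgae (-0.60, edgeR adjusted p = 0.0017) and Batf3 (-0.38, adjusted p = 0.024) were also lower in KO with LPS. The 2 cDC1 markers that were higher in KO with LPS were Cadm1 (0.46, edgeR adjusted p = 8.3e-05) and Cd8a (0.53, adjusted p = 0.011). Clec9a, Irf8, Tlr3 and Wdfy4 were not called between genotypes in either state. The part of these marker differences in the genotype differences given below was not tested. The summed level of 10 neutrophil markers was 1.94 to 4.44 CPM in 16 libraries, 90.2 CPM in WT LPS replicate 5 and 31.1 CPM in WT control replicate 4. These last 2 libraries stood apart in neutrophil transcripts, so calls of the 6 genes that end without them are named beside the result.

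LPS raised Trib1, Trib3, Cebpb and Cebpd and lowered Cebpa in both genotypes. All 5 tested members were called in each genotype, a call being a Benjamini-Hochberg adjusted p under 0.05 over all tested genes in edgeR's quasi-likelihood test. LPS changed most of the transcriptome, and 85.5% of all tested genes were called in WT (40.7% higher and 44.7% lower) and 86.2% in KO (40% higher and 46.2% lower). Control and LPS libraries did not overlap in 77.9% of genes in WT (36.6% higher and 41.3% lower) and 81.8% in KO (37.8% higher and 44% lower). A count of called members is thus read against a background of most genes, and sizes and directions are given for each.

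Trib1, the member that binds COP1 and C/EBPα, was 3.17, 3.30, 3.50 and 4.59 CPM in the 4 WT control libraries and 265.0, 271.3, 280.0, 287.9 and 323.3 CPM in the 5 WT LPS libraries. It was 6.58, 7.13, 7.49 and 8.09 CPM in KO control and 366.9, 408.6, 422.1, 425.8 and 431.4 CPM in KO LPS. The 4 groups did not overlap anywhere, and their order was WT control, KO control, WT LPS, KO LPS. With LPS, Trib1 was 78.4-fold higher in WT (log2 fold change 6.29 ± 0.108 SE, edgeR adjusted p = 4.5e-20) and 56.1-fold higher in KO (5.81 ± 0.103, adjusted p = 6.8e-20). Its change in WT ranked 139 of 11989 from the highest.

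Cebpa, the factor of early myeloid differentiation, went the other way. It was 17.6, 19.5, 21.2 and 21.7 CPM in WT control and 1.26, 1.52, 1.58, 1.82 and 2.24 CPM in WT LPS. In KO it was 24.5, 25.7, 27.0 and 27.5 CPM in control and 1.40, 1.504, 1.63, 1.88 and 2.00 CPM with LPS. No LPS library reached a control library, and the LPS groups of the genotypes overlapped throughout. The level was 11.8-fold lower with LPS in WT (-3.56 ± 0.114, edgeR adjusted p = 2.3e-16) and 15.5-fold lower in KO (-3.96 ± 0.115, adjusted p = 4.5e-17), and the change in WT ranked 179 of 11989 from the lowest.

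Cebpb, an inflammatory C/EBP factor, was 1.92, 2.47, 2.53 and 3.20 CPM in WT control and 2.00, 2.25, 2.53 and 2.64 CPM in KO control. With LPS it was 9.45, 10.8, 11.3, 11.6 and 12.3 CPM in WT and 5.88, 6.35, 7.32, 7.57 and 8.66 CPM in KO. The control groups overlapped, and with LPS all KO libraries were below the lowest WT library. The change with LPS was 2.13 ± 0.135 in WT (edgeR adjusted p = 1e-11) and 1.60 ± 0.14 in KO (adjusted p = 1.5e-09).

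Cebpd, the other inflammatory factor, was 8.47, 9.48, 10.5 and 10.8 CPM in WT control and 9.61, 9.74, 9.92 and 10.3 CPM in KO control. With LPS it was 35.1, 37.8, 38.9, 40.5 and 41.5 CPM in WT and 31.4, 33.7, 34.5, 34.5 and 34.9 CPM in KO. The KO LPS libraries all lay below the WT LPS libraries, by a small gap between 34.9 and 35.1 CPM. Its change with LPS was 1.98 ± 0.0705 in WT (edgeR adjusted p = 1.1e-15) and 1.77 ± 0.0705 in KO (adjusted p = 5.5e-15).

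Trib3, the stress-induced member, was low in control, at 0.944, 0.992, 1.02 and 1.04 CPM in WT and 0.562, 0.620, 0.729 and 0.854 CPM in KO. With LPS it was 4.29, 6.41, 6.51, 8.01 and 9.27 CPM in WT and 6.77, 6.87, 7.37, 7.57 and 7.62 CPM in KO. The WT LPS libraries spread widely, with the lowest (replicate 2) and the highest (replicate 1) on either side of all KO LPS libraries. The change with LPS was 2.79 ± 0.178 in WT (edgeR adjusted p = 1.1e-11) and 3.38 ± 0.189 in KO (adjusted p = 1.2e-12).

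Trib2, a close relative of Trib1, was near the limit of detection in these cells. Its counts were 6, 7, 8 and 9 in WT control and 4, 6, 6 and 6 in KO control. With LPS they were 0, 1, 1, 2 and 3 in WT and 0, 0, 0, 1 and 1 in KO, so within each genotype all LPS libraries lay below the control libraries. When the filter on low counts was left out, its change with LPS was -1.64 ± 0.506 in WT (edgeR adjusted p = 0.0066) and -2.73 ± 0.687 in KO (adjusted p = 0.0012), sizes that depend on the prior count added to such low values. The genotypes were not called different for Trib2 in control or with LPS (adjusted p = 0.75 and 0.38).

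The scaling bears on the size of each LPS change. With scaling by library total alone, the median log2 change of all genes moved by -0.742 in WT and -0.781 in KO. Under it the changes in WT and KO were 5.55 and 5.03 for Trib1, 2.06 and 2.60 for Trib3, -4.31 and -4.74 for Cebpa, 1.39 and 0.82 for Cebpb, and 1.24 and 0.99 for Cebpd, with each direction as before.

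**Figure D1:**
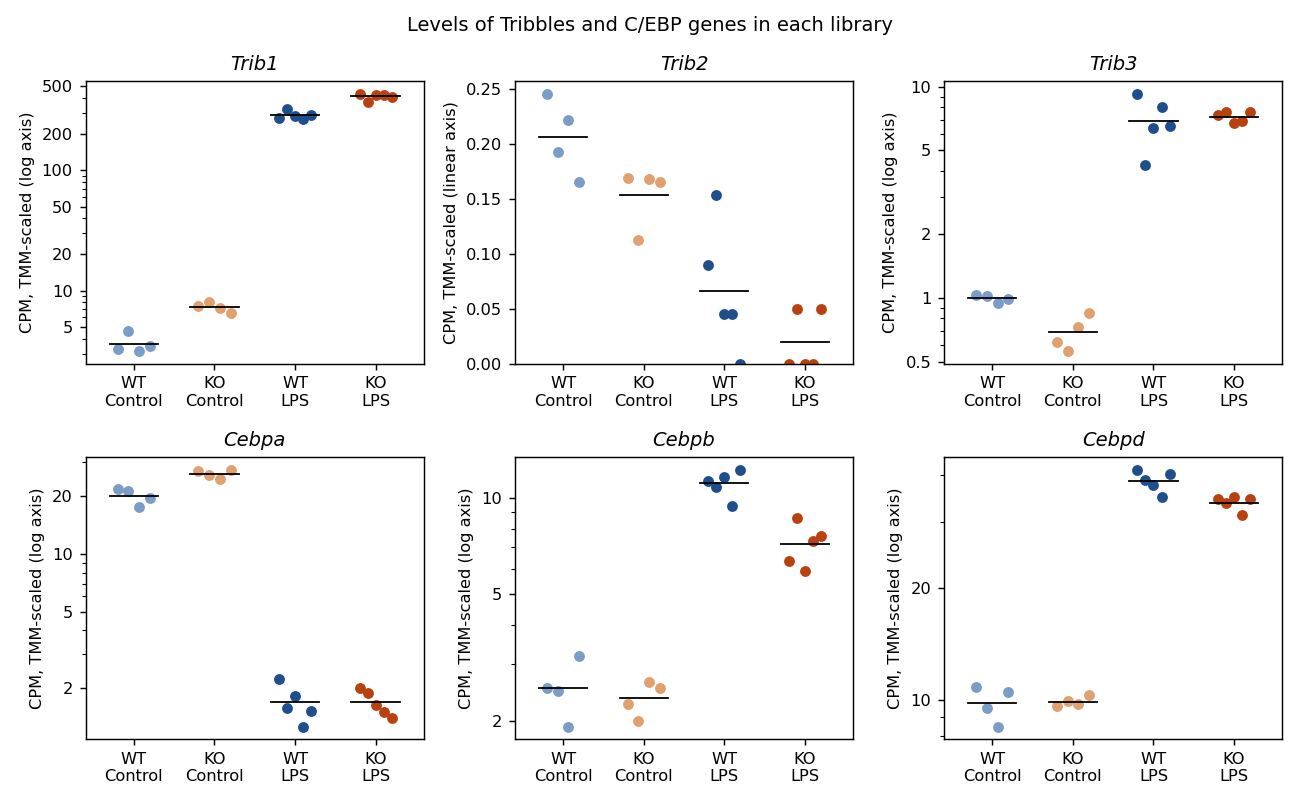
Level of each of the 6 genes in every library (vertical axis, TMM-scaled CPM, on a log axis except for Trib2, which has a linear one), by genotype and treatment; points are libraries and bars are group means. Trib1 rises through the 4 groups from 3.64 to 410.9 CPM on average, Cebpa falls from 20.0 to 1.68 CPM in WT, and Cebpb with LPS is lower in KO (7.15 CPM) than in WT (11.1 CPM).

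Promoter sequences are shown for Cebpa, which fell with LPS, and for Cebpb and Trib3, which rose, so that the starts of genes that moved in opposite directions can be set side by side. Each is the 250 bases before the transcription start, from RefSeq on build GRCm38.p6. Of the 6 members, 4 were matched, namely Trib2, Trib3, Cebpa and Cebpb. The Cebpa window is chr7:35119043-35119292 on the plus strand, the Cebpb window chr2:167688665-167688914 on the plus strand, and the Trib3 window chr2:152344061-152344310 on the minus strand. Capitals mark TATAAA, the TATA box, in Cebpa, and TGACG, the cyclic AMP response half-site, on either strand (read as CGTCA on the opposite strand) in Cebpb and Trib3.
Cebpa: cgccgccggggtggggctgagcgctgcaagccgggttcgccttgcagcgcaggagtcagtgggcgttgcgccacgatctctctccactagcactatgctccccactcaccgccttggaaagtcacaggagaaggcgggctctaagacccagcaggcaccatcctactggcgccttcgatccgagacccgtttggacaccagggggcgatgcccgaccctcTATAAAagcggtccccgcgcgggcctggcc
Cebpb: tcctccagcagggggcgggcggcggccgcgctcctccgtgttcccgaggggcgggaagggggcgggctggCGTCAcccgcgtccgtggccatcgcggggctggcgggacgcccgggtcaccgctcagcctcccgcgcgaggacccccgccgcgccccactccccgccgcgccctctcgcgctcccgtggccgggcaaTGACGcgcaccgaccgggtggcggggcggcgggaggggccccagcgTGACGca
Trib3: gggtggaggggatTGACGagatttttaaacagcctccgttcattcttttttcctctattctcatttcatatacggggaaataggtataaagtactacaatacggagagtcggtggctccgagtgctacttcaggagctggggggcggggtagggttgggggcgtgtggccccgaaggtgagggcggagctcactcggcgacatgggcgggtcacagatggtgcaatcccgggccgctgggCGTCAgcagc

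The Cebpa window held 1 TATAAA, 30 bases before the start, a sequence found in 12.4% of 32841 windows of the same length when both strands were searched. The Cebpb window held 3 copies of TGACG, at 180, 53 and 7 bases, and that of Trib3 held 2, at 237 and 10 bases, along with 1 TATAAA at 166 bases. TGACG was present in 17.8% of all windows and in neither Cebpa nor Trib2. The Cebpb window was 81.6% G or C, against 66.4% for Cebpa, 57.2% for Trib3, 73.6% for Trib2 and a median of 52.4% for all windows. The NF-kB pattern (GGG and CC, 5 bases apart) was found 3 times in Cebpa, 3 times in Cebpb, once in Trib2 and not in Trib3, some matches overlapping on opposite strands, and 45.8% of all windows held it. The patterns TTGCNNAA for C/EBP, TGATGNAA for ATF4 with CHOP, and TTCNNNGAA for STAT were in none of the 4 windows and in 9.57%, 3.45% and 7.02% of all windows. A match describes the letters and not a bound site.

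Between genotypes in control, Trib1 and Cebpa were higher in KO. These were 2 calls, both higher, among the 5 tested members, where 2.41% of all tested genes were called (1.89% higher and 0.525% lower). The mean of Trib1 was 3.64 ± 0.65 CPM (SD, n = 4) in WT against 7.32 ± 0.63 CPM (SD, n = 4) in KO, a log2 difference of 1.01 ± 0.107 SE (edgeR adjusted p = 2.4e-05), and ranked 91 of 11989 from the highest. Cebpa averaged 20.0 ± 1.8 CPM in WT against 26.2 ± 1.4 CPM in KO (0.39 ± 0.0917, edgeR adjusted p = 0.029). In both genes every KO control library lay above every WT control library, as 9.22% of all tested genes did (14.7% did not overlap in either direction).

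The Trib1 call held under all 30 alternatives. The Cebpa call was less firm, and it ended with scaling by library total (0.34, adjusted p = 0.072) and without both libraries with neutrophil transcripts (0.38, adjusted p = 0.10). It also ended without any of WT control replicates 3 (0.33, adjusted p = 0.15) and 4 (0.37, adjusted p = 0.076) and KO control replicates 1 (0.37, adjusted p = 0.089), 2 (0.40, adjusted p = 0.072) and 4 (0.36, adjusted p = 0.09).

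Trib3 in control averaged 0.997 ± 0.039 CPM in WT against 0.691 ± 0.129 CPM in KO, a difference of -0.52 ± 0.231 that was not called (edgeR adjusted p = 0.31). Its groups did not overlap, with KO lower, as in 5.45% of all tested genes. Cebpb (-0.10 ± 0.153, edgeR adjusted p = 0.85) and Cebpd (0.01 ± 0.0743, edgeR adjusted p = 0.98) were not called, and their groups overlapped. In control, 5% of all tested genes had a log2 fold change of over 0.504 in size, a level that Trib1 and Trib3 passed.

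With LPS, Trib1 was again higher in KO, and Cebpb and Cebpd were lower. These were 3 calls among the 5 tested members, where 10.8% of all tested genes were called (5.3% higher and 5.5% lower). Trib1 averaged 285.5 ± 22.8 CPM (SD, n = 5) in WT against 410.9 ± 26.01 CPM (SD, n = 5) in KO (0.53 ± 0.0733 SE, edgeR adjusted p = 8.8e-05). Cebpb averaged 11.1 ± 1.05 CPM in WT against 7.15 ± 1.09 CPM in KO (-0.63 ± 0.119, edgeR adjusted p = 0.0017), and ranked 334 of 11989 from the lowest. Cebpd averaged 38.8 ± 2.5 CPM in WT against 33.8 ± 1.4 CPM in KO (-0.20 ± 0.062, edgeR adjusted p = 0.047).

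None of these 3 genes overlapped between the genotypes with LPS, where 6.51% of all tested genes did not (3.31% higher and 3.2% lower). The Trib1 and Cebpb calls held under all 30 alternatives, with adjusted p up to 0.00072 and 0.0071. WT LPS replicate 5, the library with the most neutrophil transcripts (90.2 CPM), also had the highest Cebpb of its group, at 12.3 CPM, and WT control replicate 4 (31.1 CPM) had the highest of its own, at 3.20 CPM. Without both, Cebpb with LPS was still lower in KO (-0.59, edgeR adjusted p = 0.0043). Cebpd was close to the threshold, and its call ended under 19 of 30 alternatives (adjusted p up to 0.13, and 0.11 without those 2 libraries). They included leaving out any of WT LPS replicates 1 (0.12), 3 (0.074) and 5 (0.10), KO LPS replicates 1 (0.08), 2 (0.069), 3 (0.054), 4 (0.13) and 5 (0.077), WT control replicates 2 (0.058) and 4 (0.054), and KO control replicates 1 (0.059), 2 (0.06) and 3 (0.062), the value in parentheses being the adjusted p.

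Trib3 (0.06 ± 0.14, edgeR adjusted p = 0.82) and Cebpa (-0.0049 ± 0.151, edgeR adjusted p = 0.99) were not called between genotypes with LPS. Cebpa averaged 1.68 ± 0.37 CPM in WT LPS and 1.68 ± 0.25 CPM in KO LPS. The direction of both changed with the setting, the value of Trib3 running from -0.06 to 0.19 and that of Cebpa from -0.10 to 0.12 as single libraries were left out.

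The interaction term asks whether the LPS change itself differed between genotypes. For Trib1 it was -0.48 ± 0.13 (edgeR adjusted p = 0.042), a smaller log2 change with LPS in KO, which started from the higher control level. It was 1 call among 5 tested members, where 3.82% of all tested genes were called (1.03% higher and 2.79% lower). The call ended in 18 of 29 alternatives, among them a fit without both libraries with neutrophil transcripts (-0.46, adjusted p = 0.13) and 13 that left out 1 library. The value closest to 0 among the latter was -0.42 without WT control replicate 3 (adjusted p = 0.13), and the libraries were WT control replicates 1, 3 and 4, KO control replicates 1, 2 and 3, WT LPS replicates 1, 3 and 5 and KO LPS replicates 1, 2, 4 and 5. The interaction was not called for Trib3 (0.59 ± 0.27, edgeR adjusted p = 0.25), Cebpa (-0.39 ± 0.177, adjusted p = 0.24), Cebpb (-0.53 ± 0.194, adjusted p = 0.14) or Cebpd (-0.21 ± 0.0968, adjusted p = 0.26). The lower Cebpb of KO was thus called with LPS and not in control, while the difference between those effects was not called.

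**Figure D2:**
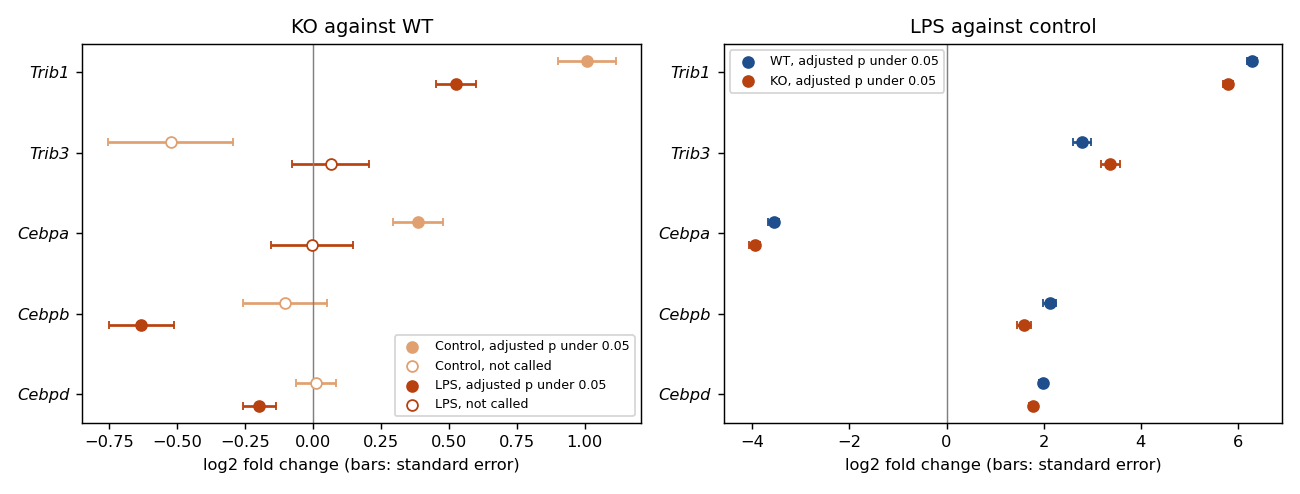
Log2 fold changes of the 5 tested genes with their standard errors (bars), for the genotype difference in each state and for the LPS change in each genotype; filled points were called at an adjusted p under 0.05. Trib1 is higher in KO in both states (1.01 and 0.53), Cebpb is lower in KO with LPS (-0.63), and the LPS changes run from -3.96 for Cebpa in KO to 6.29 for Trib1 in WT.

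Levels of different genes can be compared per length of transcript, as in the deposited TPM values, which are scaled by transcript length. Cebpa was the most abundant of the 3 C/EBP factors in control, and Cebpd with LPS. In WT control, Cebpa averaged 17.5 TPM, Cebpd 10.2 TPM and Cebpb 4.23 TPM. In WT LPS, Cebpd averaged 24.3 TPM, Cebpb 11.2 TPM and Cebpa 0.884 TPM. Their sum was 31.9 ± 2.32 TPM (SD, n = 4) in WT control, 34.0 ± 0.713 TPM (n = 4) in KO control, 36.4 ± 2.72 TPM (n = 5) in WT LPS and 28.4 ± 1.49 TPM (n = 5) in KO LPS.

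Cebpa made up 54.8 ± 2.53% of that sum in WT control and 61.6 ± 1.52% in KO control, but 2.42 ± 0.423% and 3.03 ± 0.426% with LPS. Cebpb made up 13.2 ± 1.93% and 10.6 ± 1.28% in control, and 30.7 ± 1.29% in WT LPS against 24.6 ± 3.15% in KO LPS. The WT LPS range of Cebpb, 29.6% to 32.2%, lay above the KO LPS range, 20.7% to 28.2%. Cebpd made up the rest, at 32.0% and 27.8% in control and 66.9% and 72.4% with LPS in WT and KO. These shares use the same values as the comparisons above and were given no test of their own.

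**Figure D3:**
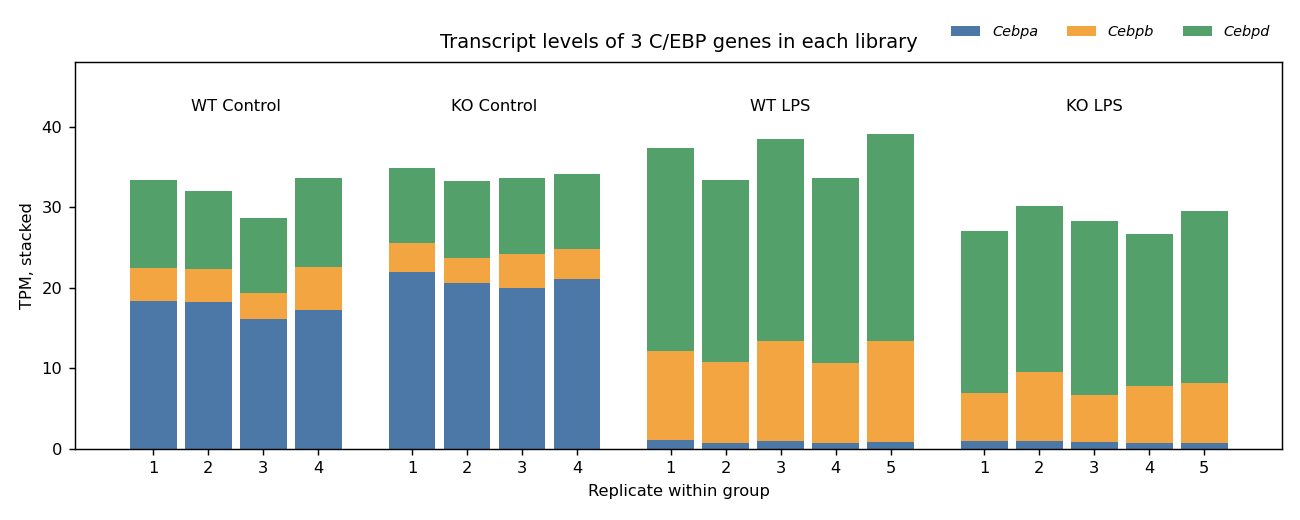
Deposited TPM of Cebpa, Cebpb and Cebpd stacked for each of the 18 libraries, by group. The stacks average 31.9 and 34.0 TPM in WT and KO control and 36.4 and 28.4 TPM in WT and KO LPS, with Cebpa at least 51.2% of each control stack and at most 3.62% of each LPS stack.

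Among the Tribbles genes, Trib1 made up 60.8 ± 3.83% of the summed TPM in WT control and 81.6 ± 3.88% in KO control, and Trib3 35.9 ± 3.28% and 16.4 ± 3.71%. With LPS, Trib1 made up 95% ± 1.55 in WT and 96.4 ± 0.387% in KO. The summed level was 3.26 ± 0.319 TPM in WT control, 4.50 ± 0.28 TPM in KO control, 99.2 ± 4.16 TPM in WT LPS and 136 ± 7.35 TPM in KO LPS. In control the C/EBP sum was thus far above the Tribbles sum, and with LPS the order was turned. TPM has a fixed total per library and is not TMM-scaled, so these sums are not set against the CPM changes.

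The genes whose log2 CPM followed each member most closely were found over all 18 samples, so that the change with LPS counts toward the likeness. For Trib1 they included H2-K1 and Ifi208 (Pearson r 0.998 each, among 8962 genes of at least 5 CPM). H2-K1 encodes a class I antigen-presenting molecule. For Trib3 they were Insig1, Aars and Cyp51 (0.995 each), genes of sterol control, alanyl-tRNA charging and sterol synthesis. For Cebpa they were Calhm2 (0.996), Antxr2 and Prkag2 (0.995 each), and for Cebpb Lpxn and Cdc14a (0.982 each) and Ms4a6d (0.98). For Cebpd they were Zfp36, which encodes an mRNA-destabilising protein, Bcl3, an atypical IκB protein, and Rela, an NF-kB subunit (0.996 each).

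After the group means were taken out, other genes came first. The deviations of Trib3 went most closely with those of Nars (0.938), an asparaginyl-tRNA synthetase, Lsm8 (0.92) and Trmt5 (0.919), and those of Trib1 with Pkm (0.942), a glycolytic enzyme, Tmem51 (0.875) and Mknk2 (0.858). For Cebpb the nearest were Plpp5 (0.772), Fos (0.726) and Orc3 (0.713), for Cebpd Htatip2 (0.785), Tbcc (0.766) and Ndufa7 (0.753), and for Cebpa Tmem160 (0.83), Tomm6 (0.811) and Edem2 (0.786). Among the members, deviations of Cebpd went with those of Cebpa (0.527) and Cebpb (0.491), and those of Trib1 ran against those of Trib3 (-0.507). All these are descriptions over the same 18 libraries, which share scaling factors, and each is either the highest of all genes compared or one of 10 pairs.

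The partners and targets of the members were looked at in 7 lists with 75 distinct tested genes. In control, none of the 75 was called between genotypes by edgeR, and 8 had an unadjusted p under 0.05. Over all 11989 tested genes, 2.41% were called and 1665 had an unadjusted p under 0.05. DESeq2 called 1 of the 75, in the list of ATF4 and CHOP stress genes, and limma-voom none. Other settings called up to 3 stress genes lower (in a fit of the control libraries alone), up to 2 inflammatory targets lower and 1 gene of the myeloid and granule list higher. A gene was called in the list of IL-6 and STAT3 input and one in that of dendritic cell factors without WT LPS replicate 2, and one in the stress list without WT LPS replicate 1. Over all 30 alternatives, the list of IL-6 and STAT3 input held a higher call in 5 and that of dendritic cell factors in 4. The list of Tribbles partners held a lower call in 1 alternative.

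Of 13 partners of the Tribbles proteins and subunits of the COP1 ligase, 8 were higher and 2 lower with LPS in WT, with a median of 0.27 against -0.0587 for all genes. Among all tested genes 40.7% were higher and 44.7% lower with LPS in WT. With scaling by library total, 3 of the 13 were higher and 7 lower, so the direction of this list depends on the scaling. Cop1 itself, the ligase that C/EBPα is brought to, averaged 69.2 and 71.5 CPM in WT and KO control. With LPS it reached 143.4 ± 18.7 CPM in WT against 162.1 ± 8.6 CPM in KO, and the genotypes overlapped. Its change with LPS was 1.05 ± 0.0748 in WT (edgeR adjusted p = 6.7e-11). Map2k1, which encodes MEK1, had the highest change with LPS of the list (1.81 ± 0.0661), and Map2k7, a kinase upstream of JNK, the lowest (-0.83 ± 0.0716). Between genotypes with LPS, 2 of the 13 were higher in KO and none lower, with a median of 0.03 against -0.0176 for all genes. Over all tested genes 5.3% were higher and 5.5% lower, so with lists this small a count of 1 or 2 is near the background.

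Those 2 were Stk40, a pseudokinase related to the Tribbles proteins, at 128.1 ± 2.5 CPM in WT LPS and 144.0 ± 7.8 CPM in KO LPS (0.17 ± 0.045, edgeR adjusted p = 0.019), and Map2k1, at 314.8 ± 27.7 and 361.8 ± 16.6 CPM (0.20 ± 0.0591, adjusted p = 0.034). Neither was firm. The Stk40 call was lost when KO LPS replicate 1, 4 or 5 was left out (adjusted p up to 0.06) and with scaling by library total (0.26). That of Map2k1 ended in 11 of 30 alternatives (adjusted p up to 0.10), and leaving out replicate 1, 3, 4 or 5 of either LPS group was enough. As a result the number of calls in the list ran from 0 to 4 as single libraries were left out, with 4 (3 higher and 1 lower) without WT LPS replicate 2.

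Of 3 other tested genes listed with the C/EBP family, none was called between genotypes in control or with LPS by edgeR, DESeq2 or limma-voom, and none had an unadjusted p under 0.05. Cebpg, a partner that forms dimers with other C/EBP proteins, averaged 39.5 ± 1.9, 40.1 ± 1.6, 41.2 ± 3.4 and 38.3 ± 2.1 CPM in WT and KO control, then WT and KO LPS. Ddit3, which encodes CHOP, averaged 7.71, 7.57, 32.7 and 32.8 CPM in the same order, a change with LPS of 2.08 ± 0.099 in WT (edgeR adjusted p = 1.1e-13). Cebpz, listed for its name but needed for ribosome production, fell with LPS in WT, by 1.27 ± 0.11 on the log2 scale (adjusted p = 1.5e-09).

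Of 21 tested ATF4 and CHOP stress genes, the group to which Trib3 is linked as a target, 15 rose and 5 fell with LPS in WT. Of all tested genes 40.7% rose and 44.7% fell, and the list's median was 1.36. Atf4 averaged 80.3, 78.7, 319.5 and 322.8 CPM in WT and KO control, then WT and KO LPS (1.99 ± 0.0918 with LPS in WT, edgeR adjusted p = 6.8e-14). Nupr1, a stress-induced chromatin protein, went from 0.041 ± 0.035 to 5.29 ± 2.17 CPM in WT, and Eif2ak3, which encodes the stress kinase PERK, from 46.6 to 16.2 CPM. Between genotypes with LPS, 1 of the 21 was called, Sesn2, a stress-induced inhibitor of mTORC1 signalling, at 15.8 ± 1.3 CPM in WT and 20.7 ± 2.5 CPM in KO (0.38 ± 0.0844, edgeR adjusted p = 0.0058). The list's median between genotypes was -0.106 in control, against 0.0213 for all genes, and -0.0472 with LPS, against -0.0176. With LPS, 10.8% of all tested genes were called. Without WT LPS replicate 2 the list held 1 higher and 3 lower calls, and Trib3 turned to -0.06 (adjusted p = 0.71), with 2 higher calls without WT LPS replicate 1 and 1 lower one without KO LPS replicate 2.

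Of 15 tested inflammatory genes linked to C/EBP factors, 11 rose with LPS in WT and none fell. Of all tested genes 40.7% rose and 44.7% fell, and the list's median was 5.24. Nos2, which encodes inducible nitric oxide synthase, was at 0 in 3 of 4 WT control libraries and averaged 12.8 ± 3.6 CPM in WT LPS. Between genotypes with LPS, 2 of the 15 were higher in KO and none lower, where 10.8% of all tested genes were called, and the list's median was -0.129. They were Tnf, the gene of tumour necrosis factor, at 1052 ± 222 CPM in WT and 1440 ± 72 CPM in KO (0.45 ± 0.101, edgeR adjusted p = 0.0064), and Nfkbiz, which encodes the NF-kB cofactor IκBζ, at 647.2 ± 149.5 and 893.7 ± 146.0 CPM (0.47 ± 0.129, adjusted p = 0.025). The Nfkbiz call was lost when any of these was left out: WT LPS replicates 3 (0.058) and 4 (0.071) and KO LPS replicates 1 (0.09) and 4 (0.058), and both libraries with neutrophil transcripts (0.055). It was also lost with only the LPS groups in the fit (0.10). Without WT LPS replicate 2 there were 3 higher and 2 lower calls. S100a8 and S100a9, which the list shares with the neutrophil markers, were not called.

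Il6, an inflammatory target of C/EBPβ and also an input to STAT3, averaged 0.048 ± 0.026 and 0.104 ± 0.097 CPM in WT and KO control and 37.9 ± 16.5 and 47.8 ± 10.5 CPM with LPS. Its LPS libraries ran from 18.6 to 63.1 CPM in WT and from 32.6 to 62.2 CPM in KO, overlapping widely. Of 11 tested genes of IL-6 and gp130 input to STAT3, 9 rose and 1 fell with LPS in WT, the one that fell being Il6ra, an IL-6 receptor chain (-1.92 ± 0.108). Among all tested genes 40.7% rose and 44.7% fell. Between genotypes with LPS, 1 of the 11 was higher in KO and 2 lower, where 5.3% and 5.5% of all tested genes were, and the list's median was 0.12.

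The 2 lower genes were Stat3, the transcription factor that IL-6 activates, at 1002 ± 99 CPM in WT and 781 ± 43 CPM in KO (-0.36 ± 0.0738, edgeR adjusted p = 0.0035), and Socs3, its feedback inhibitor, at 293.5 ± 68.2 and 196.9 ± 25.2 CPM (-0.58 ± 0.129, adjusted p = 0.0065). Both calls held under all 30 alternatives, as did the lower Cebpb. The higher gene was Il10ra, an IL-10 receptor chain, at 905.2 ± 210.9 and 1238 ± 54 CPM (0.45 ± 0.105, adjusted p = 0.0086), a call that ended with only the LPS groups in the fit (adjusted p = 0.061). Without WT LPS replicate 2 the list held 6 higher and 3 lower calls, and 2 higher calls without either KO control replicate 4 or KO LPS replicate 2.

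Of 12 dendritic cell factors that are linked to C/EBP activity, 8 rose and 4 fell with LPS in WT. Of all tested genes 40.7% rose and 44.7% fell, and the list's median was 1.17. Batf, a partner of IRF4 and IRF8, had the highest change (4.35 ± 0.141), and Klf4, a monocyte and dendritic cell factor, the lowest (-3.54 ± 0.107), close to that of Cebpa in the same libraries. Zeb2, the repressor that C/EBP factors drive, averaged 7.64 ± 1.02, 7.46 ± 0.59, 33.0 ± 11.8 and 38.3 ± 10.4 CPM in WT and KO control, then WT and KO LPS, and the genotypes overlapped in both states. Irf8, the lineage factor of cDC1, averaged 1851, 2006, 1379 and 1569 CPM in the same order.

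Between genotypes with LPS, 3 of the 12 were lower in KO and none higher, where 10.8% of all tested genes were called and 5.5% were lower, with a median of -0.0372. Nfil3, which opposes C/EBP factors at Zeb2, averaged 12.8 ± 3.5 CPM in WT LPS and 8.07 ± 0.93 CPM in KO LPS (-0.66 ± 0.158, edgeR adjusted p = 0.0098), against 5.08 ± 1.08 and 4.46 ± 0.52 CPM in control. Runx1, a myeloid transcription factor, averaged 56.5 ± 5.3 and 41.7 ± 2.8 CPM (-0.44 ± 0.0681, adjusted p = 0.00027), and Batf3, a cDC1 factor, 15.0 ± 3.0 and 11.5 ± 0.5 CPM (-0.38 ± 0.104, adjusted p = 0.024). The calls of Nfil3 and Runx1 held under all 30 alternatives. That of Batf3 ended without WT LPS replicate 5 (0.052), without KO LPS replicate 5 (0.064), without both libraries with neutrophil transcripts (0.059) and with only the LPS groups in the fit (0.088). One gene was called higher in this list without any of WT LPS replicates 2 and 3 and KO LPS replicate 1, and 4 were called lower without WT LPS replicate 2.

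Myeloid and granule genes linked to C/EBP factors were mostly at low levels. Of 12 listed, 3 passed the filter, namely Csf1r, Csf3r and Lyz2, the last at group means of 1036 to 1314 CPM. Mpo, Elane, Prtn3, Ctsg, Ltf, Camp and Ngp did not pass, so the calls given here do not cover them. None of the 3 was called between genotypes by edgeR, and none had an unadjusted p under 0.05 between genotypes. With LPS, 1 was called without KO LPS replicate 2. DESeq2 and limma-voom called none between genotypes, while 1 was called higher in control in 4 of 30 alternatives. Cebpe, the granulocytic C/EBP factor, averaged at most 0.055 CPM in any group.

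**Figure D4:**
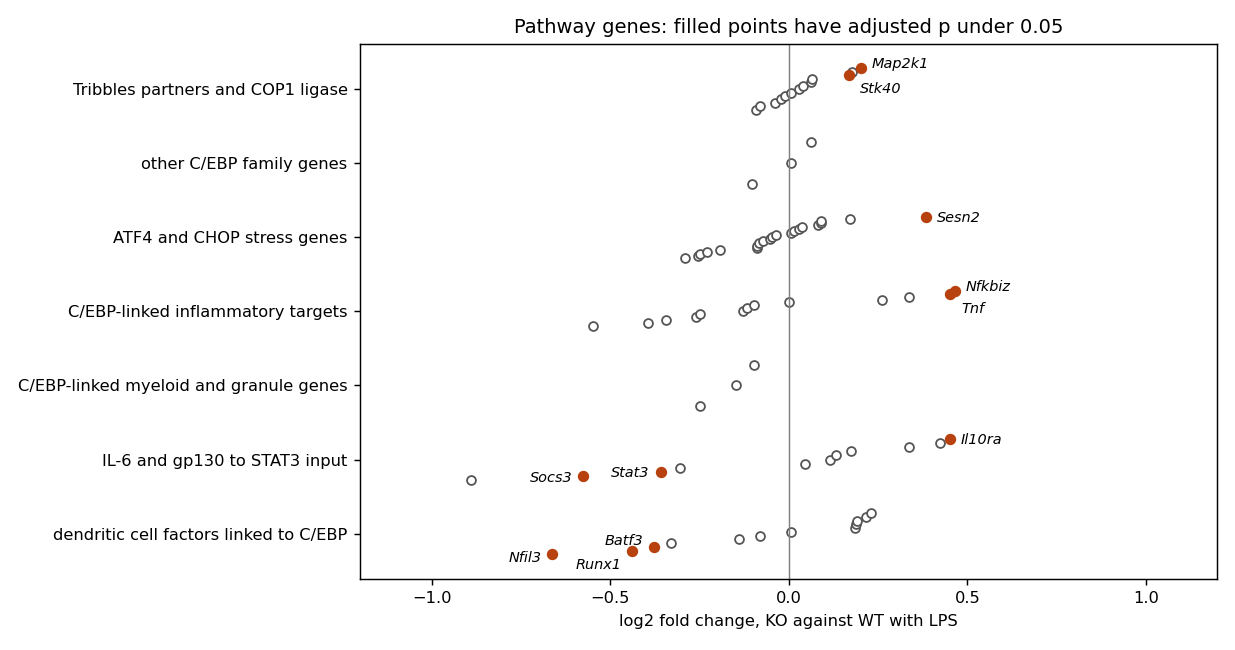
KO against WT with LPS, as log2 fold change (horizontal axis), for the tested genes of the 7 lists (rows); filled points were called at an adjusted p under 0.05 and named. Called points lie between -0.66 (Nfil3) and 0.47 (Nfkbiz); S100a8 and S100a9, not called and at -3.84 and -4.79, lie outside the axis.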

How the data were processed

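RNA of 18 samples was sequenced as 150-base read pairs, per the labels' protocols. HISAT, Bowtie2 and build GRCm39 are named in the submitters' processing notes; not given in the sources used here are the counting program, the annotation and versions. Per the file headers, the authors deposited FPKM, TPM and estimated counts for each gene and library. The estimated counts deposited by the authors are not normalized, and 6.37% are not whole at a tolerance of 0.001, so they were rounded. The TPM values deposited by the authors are scaled by length to a fixed total and were used only to compare genes with each other. The FPKM values deposited by the authors were not used.

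A quasi-likelihood model (edgeR 4.0.16, R 4.3.3) with a mean per group and no other term was fitted to all 18 libraries, after TMM scaling and a filter (minimum count 10, minimum total 15). It was run on counts simulated from its own fit, which cannot show whether the model suits these libraries. The biological coefficient of variation was 0.0934. Its contrasts were the genotype difference in each state, the LPS change in each genotype, and their interaction. The adjustment was over 11989 genes. Log2 CPM for correlations used a prior count of 2. Each SE was derived from the test, as the size of the log2 fold change divided by the square root of edgeR's F statistic. Alternatives used DESeq2 1.42.0, limma 3.58.1, other scalings, filters, blocks and samples left out.

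The members, the lists and the tests were chosen with earlier results of these data known. Genes named are the members; Cop1, Map2k1, Stk40, Ddit3, Atf4, Cebpg, Zeb2, Nfil3, Irf8, Stat3 and Il6; up to 4 called genes per list with the lowest p in each genotype contrast; the called gene with the highest and lowest LPS change in WT per list; and the 3 genes most like each member by each measure, of which 1 is not reported here. Cebpe, Cd8a, Naaa, S100a8, S100a9 and Xcr1 were added after their values were seen. So were the other genes named from the myeloid and granule list and from the marker lists. Of the table's gene IDs, 16495 were found in RefSeq on GRCm38.p6, and GC content and length came from GENCODE M21 for 98% of tested genes. Of the marker lists, cDC2 markers summed to 135.9 to 257.7 CPM per library, those of monocytes and macrophages to 1177 to 2214 CPM, those of mast cells and basophils to 174.4 to 294.3 CPM and those of plasmacytoid DC to 80.5 to 671.4 CPM. The monocyte and macrophage sum was mostly Lyz2, at group means of 1036 to 1314 CPM. The mast cell sum was mostly Kit, at group means of 167.1 to 281 CPM. With LPS the plasmacytoid sum was mostly Bst2 (365.1 and 381.2 CPM in WT and KO) and Tcf4 (149.3 and 175.1 CPM), while Siglech averaged 1.23 and 1.18 CPM.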

Additional observations from a re-analysis of the deposited data

Results flagged for a closer look

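Among 128 sets of values (32 named genes in 4 groups), 7 held a library whose gap to its nearest neighbour was large for the range of its group, and chance gives about 1 in 20. Trib2 in KO control replicate 2 was low, at 0.1124 CPM, with the next library at 0.1653 CPM, a difference of 2 counts. Cop1 was high in WT LPS replicate 2, at 176.4 CPM, with the next at 140 CPM. Map2k1 was high in WT control replicate 2, at 99.82 CPM, against 87.4 CPM. Nupr1 was high in WT LPS replicate 2, at 9.04 CPM, against 5.13 CPM. Nos2 in WT control replicate 4 was 0.02755 CPM, where the other WT control libraries were at 0. Il6ra was low in WT control replicate 1, at 48.14 CPM against 54.93 CPM, and in KO LPS replicate 1, at 9.421 CPM against 11.73 CPM. WT LPS replicate 2 thus stood apart in 2 of these genes, and it was also the lowest WT LPS library for Trib3 and the highest for Trib1.

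The change with LPS differed between the genotypes in 3 of the named genes, by the interaction term in edgeR, which called 3.82% of all tested genes. Runx1 and Batf3 were named because they were called between genotypes with LPS, which uses some of the same libraries. The difference was -0.4828 for Trib1 (adjusted p = 0.042), -0.551 for Runx1 (adjusted p = 0.0034) and -0.6961 for Batf3 (adjusted p = 0.012), in log2 units, KO minus WT. The Trib1 call ended in 18 of 29 alternatives, and those of Runx1 and Batf3 in none (adjusted p up to 0.014 and 0.041).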

How the results depend on the processing

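All 5 tested members kept their direction and their call for LPS against control, in both genotypes, under all alternatives run. So did Trib1 between genotypes in both states and Cebpb between genotypes with LPS. The number of members called between genotypes with LPS stayed at 2 or 3. In control it was 1 with scaling by library total and without both libraries with neutrophil transcripts (an alternative chosen after seeing the data), and 1 to 2 without single replicates. The interaction had 0 members called with RLE factors (DESeq2's size factors in edgeR), no filter on low counts, limma-voom, the replicate block and without the libraries with neutrophil transcripts, and 0 to 1 without single replicates.

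Among the members, directions turned only for values that were not called. In control, Cebpd was -0.0041 with RLE factors and with DESeq2, -0.034 with scaling by library total, -0.0088 with only the 2 groups compared, -0.012 without libraries 5 and 7 (WT LPS and KO LPS replicate 2, the run of library numbers with no control library analysed here), and -0.054 to 0.060 without single replicates. Cebpb in control was 0.028 without the libraries with neutrophil transcripts, and -0.22 to 0.028 without single replicates. With LPS, Cebpa was 0.020 with RLE factors, 0.0195 with DESeq2, 0.011 with limma-voom, 0.050 with a GC and length correction, 0.049 with that correction and a block by run of library numbers, and -0.096 to 0.12 without single replicates. Trib3 with LPS was -0.026 with scaling by library total, -0.067 without libraries 5 and 7, and -0.062 to 0.19 without single replicates. The change of Sesn2 with LPS in WT, which was called, turned to -0.088 with scaling by library total, under which 22.1% of calls with LPS in WT and 22.3% in KO were higher, against 47.7% and 46.4%. The causes were not tested.

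The numbers of all genes called between genotypes moved more than the members. In control there were 289, and 494 with DESeq2, 895 with only the groups compared, 822 without libraries 5 and 7, 191 without those with neutrophil transcripts, 614 and 682 with the run block without and with the GC correction, and 114 to 751 without single replicates. With LPS there were 1294, and 619 with only the groups compared, 3238 without libraries 5 and 7, 1915 and 2231 with the run block without and with the GC correction, and 805 to 3344 without single replicates (3344 without WT LPS replicate 2). For the interaction there were 458, and 813 with DESeq2, 1591 without libraries 5 and 7, 882 and 886 with the run block, 206 without the libraries with neutrophil transcripts, and 208 to 1501 without single replicates. Of the calls, 78.2% were higher in control (67% with DESeq2), 49.1% with LPS (23% with scaling by library total) and 27.1% in the interaction (42.9% with RLE factors, 47% with DESeq2).

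Of 9 pairs of same-numbered WT and KO libraries of a treatment, 3 had deviations that correlated over 0.1 (0.00923 to 0.353, median 0.071). All were above 0, and the same pairs also share a run of library numbers. A weak pairing of WT with KO may thus be present, for which the unblocked genotype fits have no term. By replicate number, 8 of 18 libraries correlated best with their own. By run of library numbers, 9 of 16 pairs of a control and an LPS library correlated over 0.1 (median 0.112), and 11 of 18 libraries correlated best within their run. All 4 pairs of WT control and WT LPS correlated over 0.1 (0.273, 0.191, 0.14 and 0.252), which leaves the unblocked fit of LPS in WT without a term for that likeness; with the run block no member's call for LPS against control changed. With the replicate block, the adjusted p was 0.062 for Cebpd with LPS and 0.061 for the Trib1 interaction. With the run block these were 0.011 and 0.035. Counting error limits Trib2, with at most 9 counts per library.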
